A study of Homo sapiens with 18 samples.

Results

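The human ATP-binding cassette (ABC) transporter family was taken as every non-control spot whose gene name on the array is ABC followed by a subfamily letter from A to G and a number. This name pattern found 46 genes among the 36204 gene names on the array, read by 70 of 50599 different array probes and 115 spots per array. CFTR, TAP1 and TAP2 belong to the same protein family under symbols that the pattern does not find, and they are described apart from the 46 genes. ABCC13 carries a member's symbol and is a pseudogene in humans.

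RNA was measured on 18 one-colour Agilent arrays, with 3 biological replicates in each of 6 groups. HT29 is an oxaliplatin-sensitive colorectal cancer cell line, and HTOXAR3 is a line derived from HT29 that resists the drug. Each line was left untreated, was treated with oxaliplatin (OXA), a platinum drug that forms DNA adducts, or was treated with OXA together with Curcumin, the polyphenol of turmeric. OXA was used for 24 h at 10 µM in HT29 and at 30 µM in HTOXAR3, and Curcumin at 10 µM in both lines. HTOXAR3 is 1 derived line, so a difference between the lines is one between that line and its parent. Comparisons of the treated lines also compare the 2 OXA doses, and line and dose cannot be told apart there.

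Markers of colorectal epithelium were present in both lines. All 11 listed markers were measured, 9 of them well above background on every one of the 18 arrays, CDX2 on 10 and CEACAM5 on 16. VIL1 and LGALS4, products of the differentiated intestinal epithelium, had log2 differences of -1.61 and -2.08 between untreated HTOXAR3 and its parent (adjusted p = 1.61e-08 and 1.24e-09), and they were called lower under both treatments too. The other 9 were not called between the lines in any state. Their differences in untreated cells, CDX2 aside, ran from -1.20 for CEACAM5 (SE 0.38, adjusted p = 0.435) to 0.17 for KRT8. CDX2 was well above background on all 9 arrays of HT29, on 1 of the 3 untreated arrays of HTOXAR3 and on none of its treated arrays, so no size is given for its difference (adjusted p = 0.142 untreated). After OXA in HT29, VIL1 rose by 1.06 and CEACAM5 fell by 2.15, and none was called in HTOXAR3. Of the 11 markers, only VIL1 was called for the interaction (-0.82, adjusted p = 0.00448). On adding Curcumin in HTOXAR3, KRT20 rose by 0.52 and KRT19 by 0.34 and LGALS4 fell by 0.62. None was called in HT29, where the KRT20 mean went from 13.59 to 13.80 and that of KRT19 from 17.83 to 18.04. The LGALS4 mean there went from 15.15 to 15.00. No epithelial marker was called for a line difference in the effect of adding Curcumin. Of 9 markers of other cell types, 3 (CD14, PTPRC and CDH5) stood well above background on every array and 3 (COL1A2, COL3A1 and ALB) on none. The summed log2 signal of those 9 was 11.27 to 11.42 in untreated HT29, 10.55 to 10.63 after OXA and 10.81 to 11.25 after OXA plus Curcumin, and in HTOXAR3 it was 11.59 to 11.68, 11.10 to 11.18 and 11.10 to 11.18. On every array the brightest probe in that sum was that of CD14, so the sum says little about the others. CD14 fell after OXA in HT29 by 0.92 and in HTOXAR3 by 0.59 on the log2 scale, and under OXA it was higher in HTOXAR3 by 0.68. COL1A1 was called higher after OXA in HT29 (adjusted p = 0.00139); it was well above background on 3 of 3 arrays after OXA and on 0 of 3 untreated, so the size of that change is not given. None of the 9 was called in another comparison. The part of these marker differences in the results on ABC genes was not tested.

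ABC proteins bind and split ATP to move substrates across membranes, and the subfamilies differ in where they sit and what they carry. Several members of the B, C and G subfamilies pump drugs and their glutathione, glucuronide or sulphate conjugates out of the cell, and these are known from work on drug resistance in tumours and on the lining of the gut. Other members carry lipids and sterols, work in mitochondria, peroxisomes or lysosomes, gate an ion channel, or act on ribosomes with no membrane part at all.

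Well above background on all 18 arrays were 26 of the 46 members, and 5 more were so on 15 to 17 arrays (ABCA10, ABCB1, ABCB4, ABCC2 and ABCG5). Another 10 members passed on 1 to 4 arrays. These were ABCA3, ABCA6, ABCA8, ABCA12, ABCA13, ABCB5, ABCC11, ABCC12, ABCC13 and ABCD2. The remaining 5, ABCA4, ABCB11, ABCC9, ABCG4 and ABCG8, were not well above background on any array. ABCA4 serves the retina and ABCB11 bile salt export in the liver. Between 29 and 34 members, each read by its brightest probe, passed on any 1 array. Of all non-control spots, those of dimmer probes included, 52.4% to 63.6% passed, so the count and the share have different bases. Every level below is a normalised log2 intensity, and levels of different genes are not compared because each array probe has its own brightness.

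A gene was called different when limma's adjusted p, by the Benjamini-Yekutieli method over all gene names, lay below 0.05 and its fold change exceeded 1.2. Of the 46 members, 24 (52.2%) were called in at least 1 comparison, against 30.6% of all names, interactions included, and 22 in none; 5 of the 22 passed the background test on every array. For each called difference the array values of the 2 groups did not overlap. Of the called members, 10 (21.7% of the 46) were called in the same direction in each of the 3 comparisons of the lines, against 7.32% of all names, 3.80% higher and 3.51% lower. ABCB1, ABCC5, ABCD3, ABCF1 and ABCF2 were higher in HTOXAR3, and ABCB4, ABCB6, ABCC3, ABCC4 and ABCG2 were lower. Each group serves in several comparisons (the OXA arrays in those with untreated cells, with added Curcumin and between the lines), so the columns of the heat map share arrays.

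**Figure D1:**
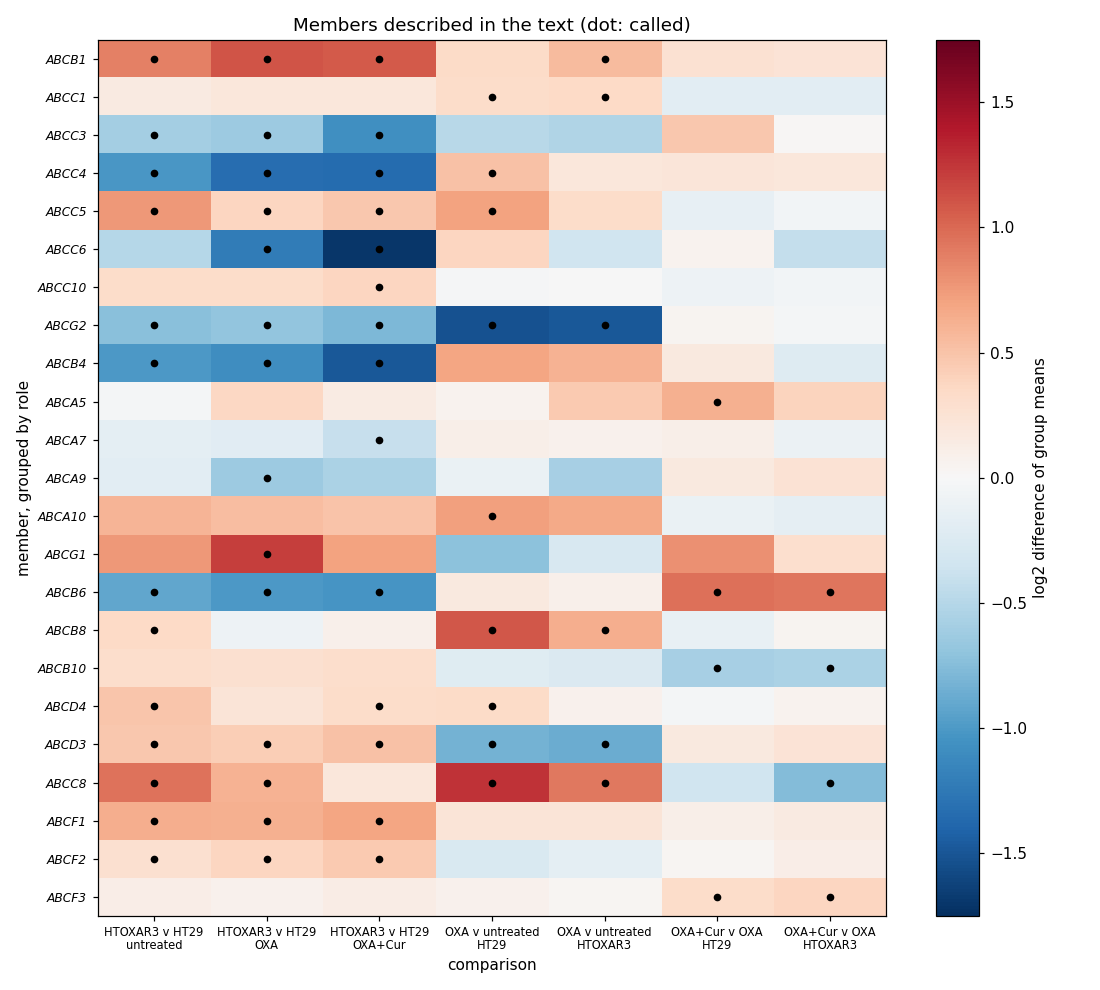
Log2 difference of group means (colour) for the called members that are described here, in rows grouped by role, over the 7 comparisons of 2 groups; a dot marks a called difference. ABCB6 and ABCC4 stay blue across the 3 line comparisons, and ABCG2 and ABCD3 are blue after OXA in both lines.

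The comparison of untreated lines asks what differs in cells with acquired resistance before any drug is added. Here 13 of 46 members (28.3%) were called, 8 higher and 5 lower in HTOXAR3, where 11.5% of all gene names were called, 6.26% higher and 5.28% lower. The median log2 difference was -0.05 over the members and -0.03 over all names. Over the 26 members well above background on all arrays the median was 0.13. Members differed in both directions, and the sign of their median depended on which members were counted.

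Under OXA, 14 members (30.4%) were called between the lines, 7 higher and 7 lower in HTOXAR3, against 14.1% of all names, 7.14% higher and 6.98% lower. Their median difference was 0.02, beside a median of -0.00 over all names. Under OXA plus Curcumin, 14 members (30.4%) were again called, 7 in each direction, against 13.9% of all names, 6.95% higher and 6.92% lower, with medians of 0.13 and 0.01.

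OXA was set against untreated cells within each line to show the response to the drug. In HT29 it changed 10 members (21.7%), 8 upward and 2 downward, against 15.9% of all names, 8.33% up and 7.62% down; the medians were 0.07 and -0.01. In HTOXAR3 it changed 7 members (15.2%), 5 upward and 2 downward, against 10.2% of all names, 5.31% up and 4.94% down, with medians of 0.09 and 0.01. The split depended on the scaling. With processed signal it was 9 up and 5 down in HT29 (all names 8.44% and 8.43%) and 4 up and 4 down in HTOXAR3 (5.92% and 5.79%). With a normexp offset of 50 it was 8 and 4 in HT29 (8.94% and 8.30%) and 7 and 3 in HTOXAR3 (6.27% and 6.00%), and with percentile scaling 8 and 4 (7.67% and 8.04%) and 4 and 2 (5.42% and 4.55%). ABCB8, ABCC1 and ABCC8 were among those that rose after OXA in both lines, and ABCD3 and ABCG2 fell in both.

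Adding Curcumin to OXA was compared with OXA alone. In HT29, 5 members (10.9%) changed, 4 up and 1 down, against 5.53% of all names, 3.14% up and 2.39% down, with medians of 0.04 and -0.02. In HTOXAR3, 5 members (10.9%) changed, 3 up and 2 down, against 8.83% of all names, 4.43% up and 4.41% down, with medians of -0.03 and -0.02. ABCB6 and ABCF3 were among those that rose in both lines, and ABCB10 fell in both.

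Whether the lines responded differently was tested as an interaction. No member was called for a line difference in the response to OXA by limma, against 1.01% of all names (0.608% higher and 0.398% lower in HTOXAR3), and 9 of the 46 had an unadjusted p under 0.05, as did 4944 of all names. No member was called for a line difference in the effect of adding Curcumin, against 0.135% of all names (0.0276% higher and 0.108% lower), and 3 of the 46 had an unadjusted p under 0.05, as did 3526 of all names. The median interaction was -0.03 over the members and 0.01 over all names for OXA, and -0.02 and 0.01 for Curcumin. Differences between the lines in which members passed the threshold are not shown to be differences in response.

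ABCB1 encodes P-glycoprotein, the efflux pump best known from multidrug resistance. Its signal in untreated HT29 was 4.82, 4.53 and 4.66 (mean 4.67 ± 0.14 SD, n = 3), well above background on 2 of the 3 arrays, and in untreated HTOXAR3 it was 5.59, 5.39 and 5.65 (mean 5.54 ± 0.14). Every HTOXAR3 array was above every HT29 array, by a log2 difference of 0.88 ± 0.11 (SE, adjusted p = 6.07e-04). Under OXA the HT29 arrays read 4.78, 5.11 and 5.10 and the HTOXAR3 arrays 6.15, 6.10 and 6.04. Under OXA plus Curcumin they read 5.49, 5.16 and 5.16 in HT29 and 6.37, 6.33 and 6.33 in HTOXAR3. The lines stayed apart in both treated states, with differences of 1.10 (2.14-fold, adjusted p = 5.67e-05) and 1.07 (2.11-fold, adjusted p = 7.58e-05). ABCB1 also rose after OXA in HTOXAR3, by 0.55 ± 0.11 (adjusted p = 0.0323), a call that was lost with any 1 of the 6 arrays left out (log2 difference 0.48 to 0.61, adjusted p 0.0597 to 0.196) and with replicate number or slide as a block (adjusted p = 0.0525 and 0.0766). It was also lost with processed signal (0.59, adjusted p = 0.236), percentile scaling (0.44, adjusted p = 0.218) and the mean of its probes (0.28, adjusted p = 1). The probe used lies at chr7:87135313-87138603 (GRCh37, minus strand). A second ABCB1 probe, well above background on 12 arrays, gave 0.54, 0.60 and 0.46 between the lines and -0.00 after OXA in HTOXAR3, none of them called. In size the line differences depended on the background correction: the basal one was 0.36 with a normexp offset of 50 and 1.40 with processed signal, called in both.

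**Figure D2:**
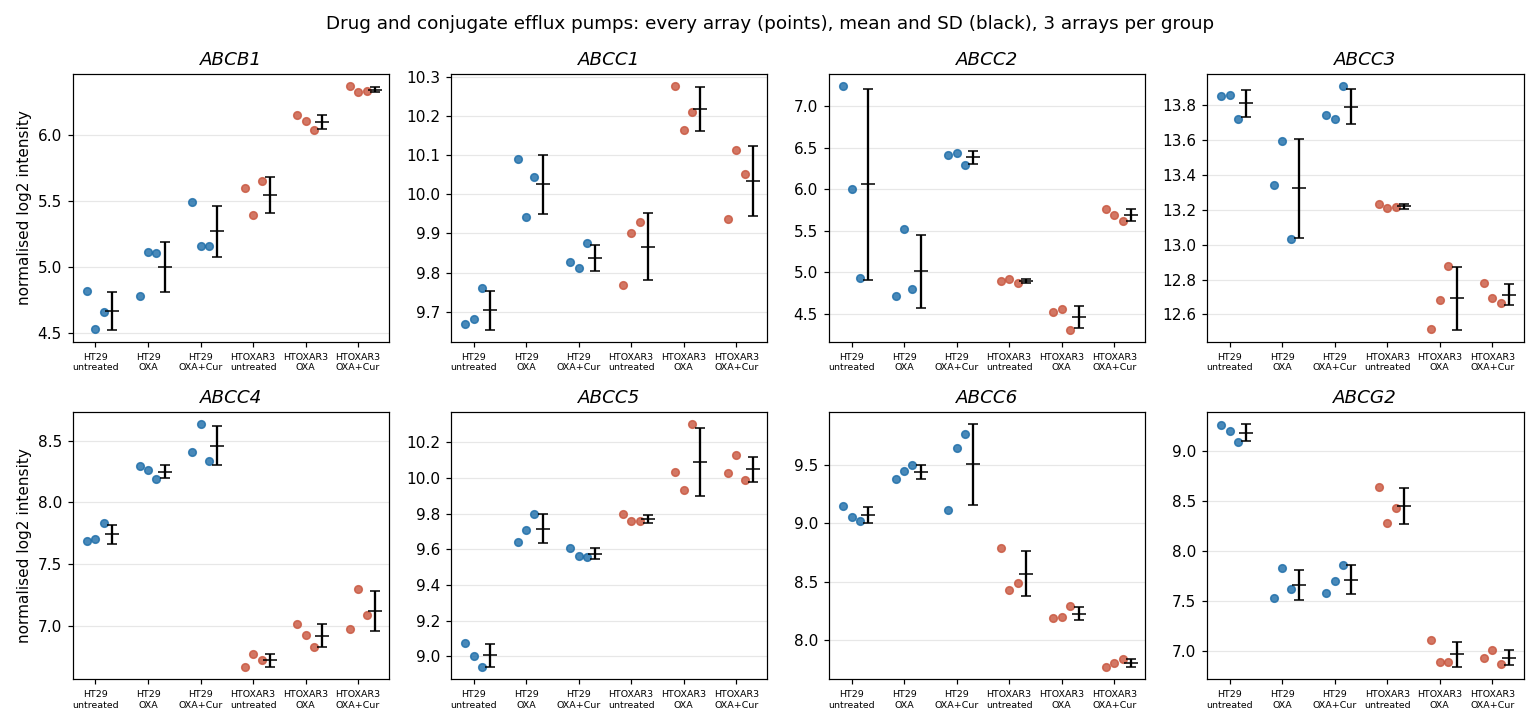
Normalised log2 intensity (vertical axis) of 8 drug and conjugate efflux pumps on every array, by group (horizontal axis); points are arrays, black marks are the mean and SD of 3. ABCB1 is higher and ABCC3, ABCC4 and ABCG2 are lower in HTOXAR3 than in HT29 in each of the 3 states, and ABCC2 in untreated HT29 runs from 4.93 to 7.24.

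ABCG2, the breast cancer resistance protein, exports many drugs at the luminal face of the gut. It read 9.27, 9.21 and 9.09 in untreated HT29 and 7.54, 7.83 and 7.63 after OXA. In HTOXAR3 it read 8.64, 8.29 and 8.43 untreated and 7.11, 6.89 and 6.89 after OXA. OXA lowered it in all arrays of both lines, by -1.52 ± 0.11 in HT29 (2.88-fold, adjusted p = 1.54e-06) and -1.49 ± 0.11 in HTOXAR3 (2.8-fold, adjusted p = 6.15e-06). Within the slides that hold both groups the change in HT29 was -1.73, -1.38 and -1.47, and in HTOXAR3 -1.35 and -1.54. With Curcumin added the levels were 7.58, 7.70 and 7.86 in HT29 and 6.93, 7.01 and 6.87 in HTOXAR3. These overlapped the arrays with OXA alone, and no change on adding Curcumin was called. Between the lines ABCG2 was lower in HTOXAR3 by -0.73 untreated (adjusted p = 0.00199), -0.70 under OXA and -0.78 under OXA plus Curcumin. Its single probe lies at chr4:89011503-89011562 (GRCh37, minus strand).

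ABCC4, an exporter of cyclic nucleotides, prostaglandins and drug conjugates, separated the lines clearly. It read 7.69, 7.70 and 7.83 in untreated HT29 and 6.66, 6.77 and 6.72 in untreated HTOXAR3, a difference of -1.02 ± 0.09 (adjusted p = 1.93e-05). After OXA it read 8.30, 8.26 and 8.19 in HT29 and 7.01, 6.92 and 6.82 in HTOXAR3. With Curcumin added it read 8.41, 8.64 and 8.33 in HT29 and 6.98, 7.29 and 7.09 in HTOXAR3. The lowest HT29 array was above the highest HTOXAR3 array in every state, and the line differences under treatment were -1.33 (2.51-fold, adjusted p = 1.10e-06) and -1.34 (2.53-fold, adjusted p = 1.19e-06). OXA raised ABCC4 in HT29 by 0.51 ± 0.09 (adjusted p = 0.00885); without untreated HT29 replicate 1 or 2 the adjusted p was 0.0530 or 0.0508, at differences of 0.48 and 0.49. In HTOXAR3 the OXA difference was 0.20 and was not called, and the interaction of -0.31 was not called either (adjusted p = 1). The probe spans chr13:95813571-95815416 (GRCh37, minus strand).

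ABCC3 exports bile acids and glucuronides at the basolateral membrane. Its arrays read 13.85, 13.86 and 13.72 in untreated HT29 and 13.24, 13.21 and 13.21 in untreated HTOXAR3. After OXA they read 13.34, 13.60 and 13.03 in HT29 and 12.52, 12.68 and 12.88 in HTOXAR3, and with Curcumin added 13.75, 13.72 and 13.91 in HT29 and 12.78, 12.69 and 12.66 in HTOXAR3. HTOXAR3 was lower in each state, with the closest arrays under OXA. The differences were -0.59 ± 0.12 (adjusted p = 0.0281), -0.63 (adjusted p = 0.0149) and -1.08 (2.11-fold, adjusted p = 1.35e-04). The basal call was lost with any 1 of the 6 arrays left out (adjusted p 0.0574 to 0.138) and with slide or replicate number as a block (adjusted p = 0.101 and 0.0602), and under OXA the slide values were -1.08 and -0.25. The probe used is at chr17:48768701-48768760 (GRCh37, plus strand). A second ABCC3 probe gave -0.18, 0.01 and -0.28 in the same comparisons, none called, and the mean of both gave -0.39, -0.31 (no longer called) and -0.68. That probe was called lower after OXA in HT29 (-0.35) and on adding Curcumin in HTOXAR3 (-0.37), where the probe used gave -0.49 and 0.02, not called. The -0.49, and -0.53 after OXA in HTOXAR3, were called with a normexp offset of 50, with processed signal and with dim genes left out, and without HT29 OXA replicate 2 the former was -0.63 (adjusted p = 0.0112) and the Curcumin difference in HT29, 0.47 with all arrays, was 0.61 (adjusted p = 0.0438).

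Under OXA, ABCC3 lost its call without replicate 1 or 2 of the OXA arrays of either line. The values were -0.62 and -0.49 without those of HT29 (adjusted p = 0.0622 and 0.0696) and -0.54 and -0.62 without those of HTOXAR3 (adjusted p = 0.0984 and 0.0697). It was also lost with slide as a block (-0.61, adjusted p = 0.0666).

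ABCC6 is a liver and kidney transporter tied to ATP release, and its loss causes pseudoxanthoma elasticum. It read 9.15, 9.05 and 9.02 in untreated HT29, 9.38, 9.45 and 9.50 after OXA, and 9.11, 9.64 and 9.77 with Curcumin added. In HTOXAR3 the readings were 8.79, 8.43 and 8.49 untreated, 8.19, 8.19 and 8.29 after OXA, and 7.76, 7.80 and 7.84 with Curcumin added. The groups of the 2 lines did not overlap in any state and their means stood farthest apart with Curcumin. The called differences were -1.22 ± 0.14 under OXA (2.33-fold, adjusted p = 1.14e-04) and -1.71 ± 0.14 under OXA plus Curcumin (3.26-fold, adjusted p = 4.56e-06). The interactions of -0.71 for OXA and -0.49 for Curcumin were not called (adjusted p = 0.754 and 1). The probe used is at chr16:16315075-16315134 (GRCh37, minus strand), and 2 nearby ones gave -1.03 and -1.41 under OXA and -1.31 and -1.60 under OXA plus Curcumin, all called. Both of these list a pseudogene, ABCC6P2, beside ABCC6. The probe at chr16:16243855-16243914, toward the other end of the gene, gave -0.15 and -0.25 and was not called.

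ABCC5, an exporter of cyclic nucleotides and antifolates, was higher in HTOXAR3. Its mean was 9.01 ± 0.07 in untreated HT29 and 9.77 ± 0.02 in untreated HTOXAR3 (n = 3 each), a difference of 0.77 ± 0.08 (adjusted p = 1.09e-04). After OXA the means were 9.72 and 10.09 and with Curcumin 9.58 and 10.05, differences of 0.38 and 0.47 that were also called. OXA raised it in HT29 by 0.71 ± 0.08 (adjusted p = 1.71e-04). The call under OXA was lost with slide as a block (0.37, adjusted p = 0.132), with replicate number as a block (adjusted p = 0.0774) and with 1 array left out, HTOXAR3 OXA replicate 2 aside (0.27 to 0.42, adjusted p 0.0567 to 0.205). Under OXA plus Curcumin it was lost without HTOXAR3 replicate 2 (0.43, adjusted p = 0.0509). Of 2 other ABCC5 probes, 1 was called higher in untreated HTOXAR3 (0.57) and after OXA in HT29 (0.60), and the other gave 0.00 and 0.18 and was not called. Between the treated lines neither was called, at 0.13 and 0.17 under OXA and 0.16 and 0.29 under OXA plus Curcumin, and the mean of the probes ended the call under OXA (0.23, adjusted p = 0.153). With that mean the difference was 0.45 untreated and 0.31 under OXA plus Curcumin, both still called, and the rise after OXA in HT29 was 0.50.

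ABCC1, the first multidrug resistance-associated protein to be named, exports glutathione conjugates. It read 9.67, 9.68 and 9.76 in untreated HT29 and 10.09, 9.94 and 10.04 after OXA, and in HTOXAR3 9.77, 9.90 and 9.93 untreated and 10.28, 10.17 and 10.21 after OXA. OXA arrays were above untreated arrays in both lines, by 0.32 ± 0.07 (adjusted p = 0.0212) and 0.35 ± 0.07 (adjusted p = 0.0167). With Curcumin added it read 9.83, 9.81 and 9.87 in HT29 and 9.94, 10.11 and 10.05 in HTOXAR3, and the differences of -0.19 and -0.18 from OXA alone were not called. No line difference was called for ABCC1, at 0.16, 0.19 and 0.20. The call in HT29 was lost without untreated replicate 1 or 2 or OXA replicate 1 or 3, at differences of 0.30, 0.31, 0.29 and 0.31 (adjusted p 0.0930 to 0.113). In HTOXAR3 it was lost without the same replicates, at 0.30, 0.37, 0.32 and 0.35 (adjusted p 0.0514 to 0.112).

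ABCC2 exports glutathione conjugates at the apical membrane and was not called in any comparison with all arrays and Benjamini-Yekutieli adjustment. It read 7.24, 6.00 and 4.93 in untreated HT29, 4.72, 5.52 and 4.79 after OXA, and 6.41, 6.44 and 6.30 with Curcumin added. In HTOXAR3 it read 4.90, 4.92 and 4.87 untreated, well above background on 1 of 3 arrays, 4.52, 4.56 and 4.31 after OXA, on 2 of 3, and 5.76, 5.69 and 5.61 with Curcumin added. The 3 untreated HT29 arrays had an SD of 1.15 and overlapped the OXA arrays. With Curcumin added every array was above every array with OXA alone, at differences of 1.37 in HT29 and 1.22 in HTOXAR3 that did not pass the test (SE 0.39, adjusted p = 0.380 and 0.527). With Benjamini-Hochberg adjustment both were called (adjusted p = 0.0343 and 0.0476). A second ABCC2 probe was well above background on 0 of 18 arrays. Without untreated HT29 replicate 3, ABCC2 was called lower after OXA in HT29 (-1.61, adjusted p = 0.0109, where all arrays gave -1.05) and in untreated HTOXAR3 (adjusted p = 0.00889), a difference whose size is not given because of the arrays near background. ABCC10, another conjugate exporter, was called once, higher in HTOXAR3 by 0.37 under OXA plus Curcumin (adjusted p = 0.0235), and its 2 other probes gave 0.37 and -0.14. That call was lost with the mean of all probes (0.20, adjusted p = 1), with slide as a block (0.37, adjusted p = 0.0583) and with 1 array left out, HT29 replicate 1 aside (0.33 to 0.38, adjusted p 0.0790 to 0.150). The ABCC10 probe used gave 0.32 between the untreated lines and 0.33 under OXA, not called in the main fit. Both were called with Benjamini-Hochberg adjustment and with dim genes left out.

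ABCB4, which moves phosphatidylcholine into bile, was lower in HTOXAR3. It read 5.89, 6.21 and 6.34 in untreated HT29 and 5.18, 5.27 and 4.98 in untreated HTOXAR3, where 2 of 3 arrays were well above background. After OXA it read 6.67, 6.71 and 7.11 against 5.90, 5.74 and 5.62, and with Curcumin added 6.71, 6.92 and 7.40 against 5.55, 5.63 and 5.40. The lines did not overlap in any state, and the differences were -1.01 ± 0.17 (adjusted p = 0.00762), -1.08 (adjusted p = 0.00352) and -1.48 (2.79-fold, adjusted p = 2.06e-04). Without replicate 3 of untreated HT29 or of untreated HTOXAR3 the basal difference was -0.91 or -0.92 and its adjusted p was 0.0511 or 0.0525. With a normexp offset of 50 the differences were -0.50, -0.66 and -0.90, still called. Its neighbour in the genome, ABCB1, went the other way between the lines. The ABCB4 probe is at chr7:87031383-87031442 (GRCh37, minus strand).

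ABCG1 exports cholesterol to lipoproteins. It read 6.66, 6.34 and 7.26 in untreated HT29, 6.13, 5.70 and 6.27 after OXA and 6.81, 6.58 and 7.09 with Curcumin added. In HTOXAR3 it read 7.41, 7.37 and 7.76, then 7.15, 7.24 and 7.33, then 7.42, 7.60 and 7.59. The HTOXAR3 arrays were above the HT29 arrays in each state, but the call was made under OXA alone, at 1.21 ± 0.21 (2.31-fold, adjusted p = 0.00715), and at 0.80 with a normexp offset of 50. ABCA7, a phospholipid transporter, was lower in HTOXAR3 under OXA plus Curcumin by -0.40 (adjusted p = 0.00549). ABCA5 rose in HT29 with Curcumin by 0.62 (adjusted p = 0.0114), and without replicate 1 of that group the value was 0.58 (adjusted p = 0.0744). With a normexp offset of 50 it was 0.37, still called. ABCA9, lower in HTOXAR3 under OXA by -0.64 (adjusted p = 0.0472), lost its call in 7 of 14 other settings, among them without HT29 replicate 2 or 3 or HTOXAR3 replicate 1 or 2 (-0.65 to -0.50, adjusted p 0.153 to 0.273) and with replicate number as a block (-0.64, adjusted p = 0.103), processed signal (-0.57, adjusted p = 0.0890) and percentile scaling (-0.57, adjusted p = 0.0895). ABCA10, higher after OXA in HT29 by 0.72 (adjusted p = 0.0206), lost it with 1 array left out, OXA replicate 1 aside (0.59 to 0.74, adjusted p 0.0643 to 0.128). Its value was 0.32 with a normexp offset of 50 and 0.99 with processed signal, called in both, and its probe also lists the pseudogene ABCA11P. In HTOXAR3 the ABCA10 mean went from 5.50 untreated, well above background on 2 of 3 arrays, to 6.17 after OXA. That change was not called in the main fit. It was called with Benjamini-Hochberg adjustment and with dim genes left out.

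Among the 4 mitochondrial transporters, ABCB6, which carries porphyrins, separated both the lines and the Curcumin groups. It read 12.10, 11.97 and 11.93 in untreated HT29, 12.19, 12.12 and 12.21 after OXA and 13.26, 13.13 and 13.03 with Curcumin added. In HTOXAR3 it read 11.10, 11.11 and 11.04, then 11.08, 11.27 and 11.15, then 12.09, 12.06 and 12.16. Each line showed a step up with Curcumin and none that passed the test after OXA, and the HTOXAR3 arrays with Curcumin lay in the range of HT29 without it. Curcumin raised ABCB6 by 0.97 ± 0.07 in HT29 (adjusted p = 2.09e-05) and 0.94 ± 0.07 in HTOXAR3 (adjusted p = 1.54e-05), and the slide values were 1.08 and 0.82 in HT29 and 1.01 and 0.90 in HTOXAR3. The lines differed by -0.91 untreated (adjusted p = 5.15e-06), -1.01 under OXA and -1.03 under OXA plus Curcumin. The probe is at chr2:220074498-220074557 (GRCh37, minus strand).

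**Figure D3:**
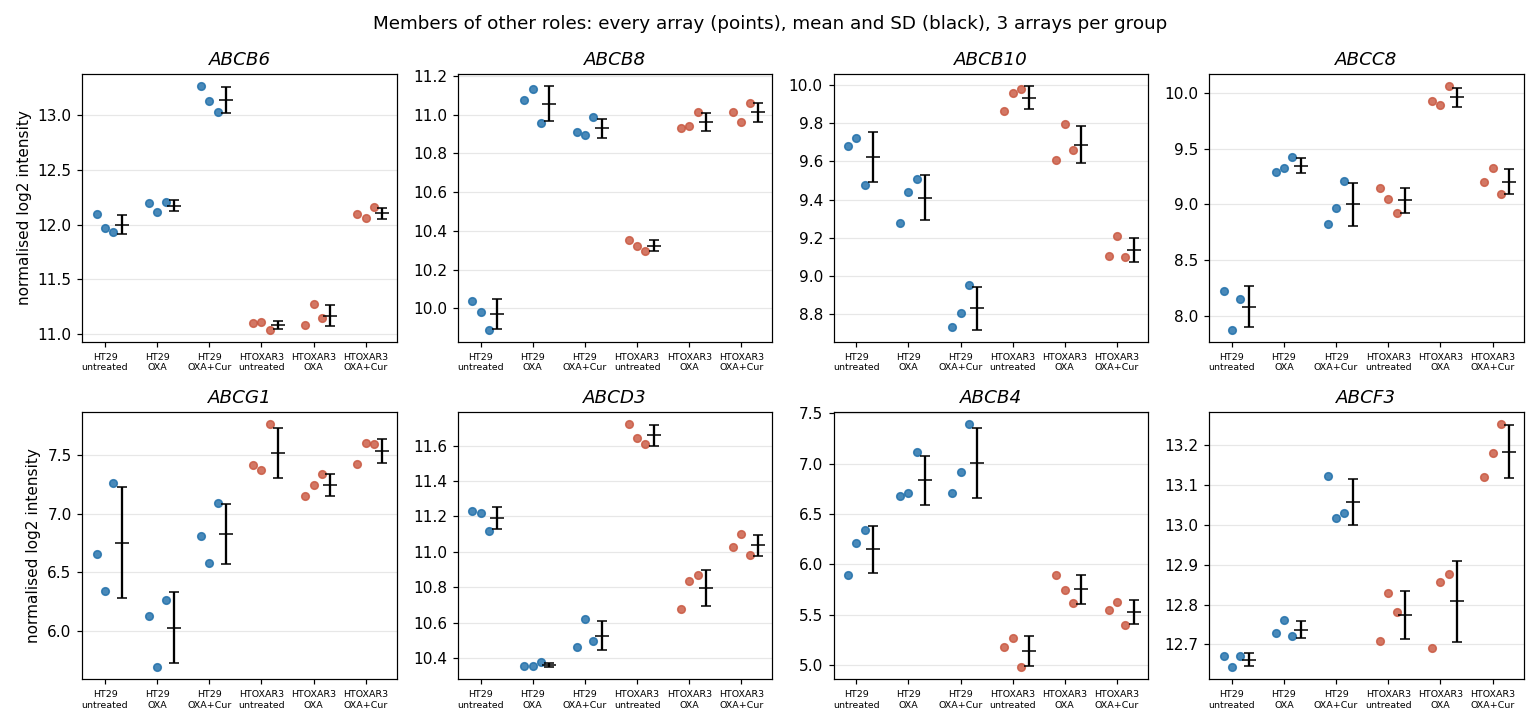
Normalised log2 intensity (vertical axis) of 8 members of other roles on every array, by group (horizontal axis); points are arrays, black marks are the mean and SD of 3. ABCB6 and ABCF3 are higher and ABCB10 is lower with Curcumin added in both lines.

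ABCB10, an inner membrane transporter needed for heme synthesis, moved opposite to ABCB6 on adding Curcumin. Its mean went from 9.41 ± 0.12 under OXA to 8.83 ± 0.11 with Curcumin in HT29, and from 9.69 ± 0.10 to 9.14 ± 0.06 in HTOXAR3 (SD, n = 3). The log2 differences were -0.58 (adjusted p = 0.00578) and -0.55 (adjusted p = 0.00529), and a second ABCB10 probe gave -0.44 and -0.52, not called.

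ABCB8, an inner membrane transporter linked to mitochondrial iron, rose after OXA. It read 10.04, 9.98 and 9.89 in untreated HT29 and 11.08, 11.13 and 10.96 after OXA, and in HTOXAR3 10.35, 10.32 and 10.29 untreated and 10.93, 10.94 and 11.01 after OXA. With Curcumin added it read 10.91, 10.90 and 10.99 in HT29 and 11.02, 10.96 and 11.06 in HTOXAR3. Untreated arrays lay below every treated array, and treated arrays of the lines overlapped. The rise was 1.09 ± 0.06 in HT29 (2.12-fold, adjusted p = 1.43e-07) and 0.64 ± 0.06 in HTOXAR3 (1.56-fold, adjusted p = 6.12e-05). The interaction of -0.45 ± 0.09 was not called (adjusted p = 0.116), but it was with a normexp offset of 50 (-0.43, adjusted p = 0.0259), with dim genes left out (adjusted p = 0.0253) and with Benjamini-Hochberg adjustment (adjusted p = 0.0104). It was not called with processed signal (-0.44, adjusted p = 0.0595), percentile scaling (-0.46, adjusted p = 0.0887), the mean of its probes (-0.16, adjusted p = 1), slide or replicate number as a block (adjusted p = 0.166 and 0.221) or any 1 array left out (-0.50 to -0.41, adjusted p 0.0752 to 0.375), and a second ABCB8 probe gave 0.12. In untreated cells ABCB8 was higher in HTOXAR3 by 0.35 (adjusted p = 0.00763). The probe used is at chr7:150744762-150744821 (GRCh37, plus strand). The probe at chr7:150742296-150742355 disagreed: it was called lower in untreated HTOXAR3 (-0.41, adjusted p = 0.0178), and its OXA differences of 0.03 and 0.15 were not called. It was also called lower in HTOXAR3 under OXA plus Curcumin (-0.35, adjusted p = 0.0498), where the probe used gave 0.08. With the mean of both, the rises were 0.56 and 0.39, still called, and the difference between untreated lines was -0.03, not called.

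**Figure D4:**
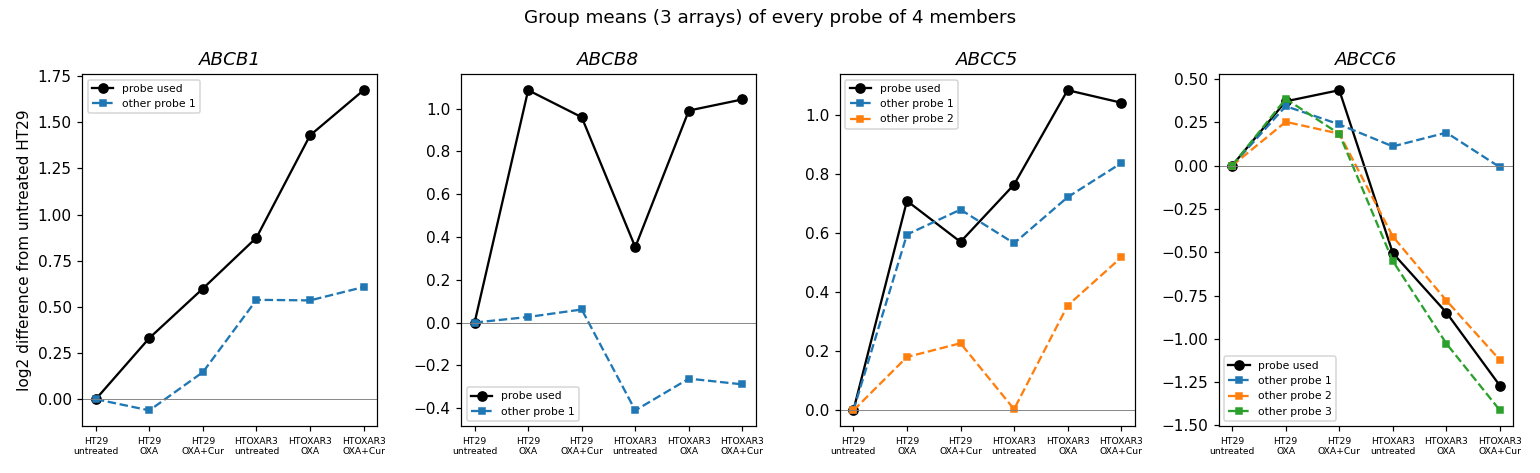
Group means over 3 arrays of each array probe of ABCB1, ABCB8, ABCC5 and ABCC6, as the log2 difference from untreated HT29 (vertical axis), across the 6 groups (horizontal axis); black is the probe used. The ABCB8 lines part after OXA in HT29, and they are already apart in untreated HTOXAR3 (0.35 for the probe used, -0.41 for the other). Of the 4 ABCC6 lines, 1 stays near its starting level in HTOXAR3.

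ABCD3, which imports branched-chain and bile acid precursors into peroxisomes, fell after OXA by 0.83 in HT29 (adjusted p = 4.38e-06) and by 0.86 in HTOXAR3 (adjusted p = 8.78e-06). It was higher in HTOXAR3 than in HT29 by 0.47 untreated, 0.43 under OXA and 0.51 under OXA plus Curcumin. A second ABCD3 probe gave -0.54 and -0.61 after OXA, both called. Between the lines it gave 0.34 untreated, which was called, and 0.27 under OXA and 0.23 under OXA plus Curcumin, which were not (adjusted p = 0.132 and 0.332).

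ABCD4, which works with cobalamin export from lysosomes, was higher in untreated HTOXAR3 by 0.48 (adjusted p = 8.23e-04), higher under OXA plus Curcumin by 0.32 (adjusted p = 0.0209), and rose after OXA in HT29 by 0.33 (adjusted p = 0.0148). Another ABCD4 probe, listed on the opposite strand, gave 0.04, -0.04 and -0.18, and with the mean of both all 3 calls were lost (0.26, 0.14 and 0.08). The call under OXA plus Curcumin was lost with 1 array left out, HTOXAR3 replicate 3 aside (0.28 to 0.33, adjusted p 0.0561 to 0.130), and that of OXA without untreated replicate 1 or 3 or OXA replicate 2 or 3 (0.28 to 0.31, adjusted p 0.0784 to 0.0893). ABCB9, a lysosomal peptide transporter, was not called with the probe used (0.58 after OXA in HT29), but a second probe was called higher there (0.70, adjusted p = 0.0212).

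ABCC8 encodes SUR1, the regulatory subunit of ATP-sensitive potassium channels, and was called in 5 comparisons. It read 8.22, 7.88 and 8.15 in untreated HT29, 9.29, 9.32 and 9.42 after OXA and 8.83, 8.97 and 9.21 with Curcumin added. In HTOXAR3 it read 9.14, 9.05 and 8.92, then 9.93, 9.89 and 10.06, then 9.20, 9.32 and 9.09. OXA arrays were the highest in both lines, and HTOXAR3 with Curcumin added overlapped untreated HTOXAR3. OXA raised it by 1.26 ± 0.11 in HT29 (2.40-fold, adjusted p = 1.10e-05) and 0.92 ± 0.11 in HTOXAR3 (adjusted p = 4.64e-04). Curcumin lowered it in HTOXAR3 by -0.75 (adjusted p = 0.00296), while the -0.35 in HT29 and the interaction of -0.41 (adjusted p = 1) were not called. Between the lines it was higher in HTOXAR3 by 0.95 untreated (adjusted p = 2.10e-04) and 0.61 under OXA (adjusted p = 0.00902), the latter at 0.56 with adjusted p = 0.0568 without HTOXAR3 OXA replicate 3. The probe is at chr11:17414602-17414661 (GRCh37, minus strand).

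The members without membrane domains act on translation. ABCF1, an initiation factor partner, was higher in HTOXAR3 by 0.63 untreated (adjusted p = 3.61e-04), 0.63 under OXA and 0.69 under OXA plus Curcumin. ABCF2 was higher by 0.28, 0.37 and 0.46, and its basal call (adjusted p = 0.0258) was lost with any 1 of the 6 arrays left out, at 0.27 to 0.30, with replicate number or slide as a block (adjusted p = 0.0531 and 0.0623) and with processed signal (0.24, adjusted p = 0.168). Its probe spans chr7:150911266-150912012 (GRCh37, minus strand) and matches RefSeq under the readthrough symbol ABCF2-H2BK1. ABCF3 rose on adding Curcumin by 0.32 in HT29 (adjusted p = 0.0352) and 0.38 in HTOXAR3 (adjusted p = 0.00731). Without any 1 of its 6 arrays the ABCF3 change in HT29 was 0.29 to 0.34 and not called (adjusted p 0.0900 to 0.202). The call in HT29 was also lost with replicate number as a block (0.32, adjusted p = 0.0523) and with slide as a block (0.33, adjusted p = 0.0695). In HTOXAR3 the change was 0.34 with adjusted p = 0.0567 without OXA plus Curcumin replicate 3. ABCE1, the ribosome recycling factor, was not called with the probe used, except after OXA in HT29 (-0.29) under Benjamini-Hochberg adjustment or with dim genes left out. A second ABCE1 probe was called higher in HTOXAR3 under OXA plus Curcumin (0.45, adjusted p = 0.00398), where the probe used gave 0.17.

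The arrays lay on 3 slides. Slide 1 held 1 untreated and 1 OXA array of HT29, and slides 2 and 3 held 8 arrays each from all 6 groups.

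The family genes outside the name pattern also moved. TAP1 and TAP2, which load peptides for antigen presentation, were higher in untreated HTOXAR3 by 1.41 (adjusted p = 5.39e-06) and 0.60 (adjusted p = 1.66e-04). TAP1 rose after OXA in both lines, by 1.36 and 0.69, and TAP2 in HT29, by 0.60. CFTR, the chloride channel of the gut surface, fell after OXA by 0.81 in HT29 (adjusted p = 0.0176) and by 1.06 in HTOXAR3 (adjusted p = 0.00317). It fell by a further 1.58 in HTOXAR3 with Curcumin (adjusted p = 1.42e-04), where its line difference was -1.89. TAP2 fell with Curcumin in HT29 by 0.40. In the other line of each the change was not called. The CFTR mean went from 10.54 to 10.11 in HT29, and that of TAP2 from 9.91 to 9.77 in HTOXAR3. No interaction was called for TAP1, TAP2 or CFTR, for OXA or for Curcumin.

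A list of 17 regulators of ABC genes held 3 called genes between the untreated lines, all lower in HTOXAR3, 2 higher and 3 lower under OXA, and 2 higher and 4 lower under OXA plus Curcumin, where 11.5%, 14.1% and 13.9% of all names were called. AHR, the xenobiotic receptor, was lower by -1.10, -0.70 and -0.73 in the 3 states, and PPARA, the fatty acid receptor, by -0.67, -0.53 and -1.08. After OXA, 4 fell in HT29 and 3 in HTOXAR3, beside falls in 7.62% and 4.94% of all names. RXRA, partner of many nuclear receptors, fell by 1.61 and 0.75, and NR1H3, a sterol sensor, by 0.38 and 0.43. On adding Curcumin 1 of the 17 was called, NR1H2, another sterol sensor, which rose in HTOXAR3 by 0.51, against 8.83% of all names called there and 5.53% in HT29. The median over the list was -0.12, -0.01 and 0.04 between the lines in the 3 states, against -0.03, -0.00 and 0.01 over all names. It was -0.22 and -0.01 after OXA in HT29 and HTOXAR3, against -0.01 and 0.01. On adding Curcumin it was 0.08 and -0.10, against -0.02 in both. NR1I2 and NFE2L2 were well above background on 0 of the 18 arrays and NR1H4 on 7. These genes stay in the counts and medians of the list, where their missing calls say little.

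A list of 13 partners and suppliers of substrate had 1 gene higher and 2 lower between untreated lines, 2 and 3 under OXA, and 2 and 3 under OXA plus Curcumin, where 11.5%, 14.1% and 13.9% of all names were called. After OXA, 4 rose and 2 fell in HT29, and 2 rose and 2 fell in HTOXAR3, against calls for 15.9% and 10.2% of all names. GCLC, the rate-limiting enzyme of glutathione synthesis, fell after OXA by 0.53 and 0.49 and rose on adding Curcumin by 0.37 (adjusted p = 0.00380) and 0.50 (adjusted p = 1.99e-04). GSS, the next enzyme of that pathway, rose after OXA by 0.54 and 0.39, and APOE, a sterol acceptor, by 0.67 and 0.93. PDZK1, a scaffold for apical transporters, fell by 1.01 and 1.23. KCNJ8, also on the list, was well above background on 1 of the 18 arrays. Adding Curcumin raised 1 of the 13 in HT29 and raised 1 and lowered 1 in HTOXAR3, where 5.53% and 8.83% of all names were called. The list's median was -0.18, -0.19 and -0.12 between the lines in the 3 states, 0.21 and 0.04 after OXA in HT29 and HTOXAR3, and -0.08 and -0.03 on adding Curcumin, beside the medians over all names given for the regulators.

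Promoter sequences from RefSeq (GRCh38.p14) were available for 35 of the 46 members, in 53 windows of the 250 bases before a start. Members named here with none listed include ABCB4, ABCC1, ABCC3, ABCC8 and ABCG1. The windows were searched on both strands for TGACNNNGC, the core of the antioxidant response element, held by 9 of the 53 windows and 10.9% of 35116 windows of all genes, and for the E-box CACGTG, held by 9 and 6.34%. The GC box GGGCGG was held by 25 and 42.6%, and the CCAAT box by 11 and 32% of them. Shown are ABCB6, ABCF3 and ABCB10, which changed on adding Curcumin in both lines, and ABCB8 for its rise after OXA, with motif letters in capitals. ABCB6 lies on the minus strand of chr2:219218959-219219208, ABCF3 on the plus strand of chr3:184185949-184186198, ABCB10 on the minus strand of chr1:229558708-229558957 and ABCB8 on the plus strand of chr7:151028200-151028449.
ABCB6: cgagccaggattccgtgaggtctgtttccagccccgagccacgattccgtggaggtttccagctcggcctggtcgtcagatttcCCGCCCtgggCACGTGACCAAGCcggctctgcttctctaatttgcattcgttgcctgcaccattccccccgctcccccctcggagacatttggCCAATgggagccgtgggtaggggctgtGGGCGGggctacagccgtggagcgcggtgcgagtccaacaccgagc
ABCF3: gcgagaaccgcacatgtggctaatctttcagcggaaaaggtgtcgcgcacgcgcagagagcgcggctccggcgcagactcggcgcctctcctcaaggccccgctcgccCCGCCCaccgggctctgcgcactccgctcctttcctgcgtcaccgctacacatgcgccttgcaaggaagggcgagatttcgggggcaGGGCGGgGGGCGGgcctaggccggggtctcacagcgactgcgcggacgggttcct
ABCB10: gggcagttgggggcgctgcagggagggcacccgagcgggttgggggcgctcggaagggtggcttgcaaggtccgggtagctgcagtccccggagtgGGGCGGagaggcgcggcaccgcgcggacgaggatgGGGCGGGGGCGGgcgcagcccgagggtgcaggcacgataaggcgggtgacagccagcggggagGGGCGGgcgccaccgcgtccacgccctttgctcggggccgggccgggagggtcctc
ABCB8: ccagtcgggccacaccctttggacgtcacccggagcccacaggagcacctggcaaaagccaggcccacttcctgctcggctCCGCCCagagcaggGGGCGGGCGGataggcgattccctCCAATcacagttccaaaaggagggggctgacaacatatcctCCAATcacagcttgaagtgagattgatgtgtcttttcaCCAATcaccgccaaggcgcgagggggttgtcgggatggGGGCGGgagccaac
The ABCB6 window holds 1 antioxidant core and 1 E-box, which overlap, with 2 GC boxes and 1 CCAAT box. ABCF3 holds 3 GC boxes and ABCB10 holds 4, with none of the other motifs. ABCB8 holds 4 GC boxes and 3 CCAAT boxes. A match describes letters in the window and is not a measured binding site.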

How the data were processed

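Intensity values are those the authors deposited as scanner output of 18 arrays (Feature Extraction 10.7.3.1). The mean signal was corrected with normexp (offset 0) against the median background and quantile normalised. The study's methods name normexp and quantile normalisation; the offset, the mean signal and the median background were chosen here. The study's limma version is not given in the sources used here. Control spots were left out after normexp and outlier spots set missing (36 spots of members). Spots of a probe were averaged, and the brightest probe stood for its gene name. Limma 3.58.1 in R 4.3.3 fitted 6 group terms over all gene names. Figures used matplotlib 3.10.9. Not every called member is described; those described at a log2 size of 1 or more, and the efflux pumps ABCB1, ABCC1, ABCC2, ABCC3, ABCC4 and ABCG2, have array values. Members and lists were chosen with earlier results of these data known. Arrays of the same replicate number correlated at r of 0.117 to 0.242 in OXA against untreated HT29, and 0.109 to 0.195 for Curcumin in HTOXAR3. Replicate number as a block is given where it ends a call. The block also added calls, and after OXA in HT29 it called 12 members where the main fit called 10. Other alternatives were a normexp offset of 50, processed signal and 75th percentile scaling, the mean of all probes, a filter on dim genes, Benjamini-Hochberg, slide as a block and leaving out each array. The median of all names moved by over 0.1 under processed signal (to -0.14 between lines under OXA, -0.19 for OXA in HTOXAR3, 0.09 for Curcumin in HTOXAR3 and -0.10 for the OXA interaction) and under percentile scaling (to 0.15 between lines under OXA and -0.14 for Curcumin in HTOXAR3). No called direction turned under them. The number of arrays limits the precision.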

Additional observations from a re-analysis of the deposited data

How the results depend on the processing

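Of 68 called differences of members, 44 stayed called in all settings other than the choice of another probe. Benjamini-Hochberg adjustment called 21 members between the untreated lines, 16 after OXA in HT29, 15 after OXA in HTOXAR3, 8 with Curcumin in HT29, 8 with Curcumin in HTOXAR3 and 1 for the OXA interaction, against 17%, 21.9%, 16.6%, 10.2%, 14.2% and 3.00% of all names under that adjustment. The filter on dim genes, which tests fewer names, called 11 of its 32 members after OXA in HTOXAR3 (21.2% of its 21871 names) and 1 for that interaction (2.95%), and an offset of 50 called 1 there (1.76% of all names). With replicate number as a block the counts were 12, 12 and 15 between the lines, 12 and 6 after OXA, 5 and 5 with Curcumin and 0 for both interactions, against 11.5%, 13.9%, 13.9%, 16%, 10.3%, 5.19%, 8.66%, 0.909% and 0.0856% of all names. With 1 array left out, they were 11 to 12, 11 to 12 and 11 to 13 between the lines, 6 to 9 after OXA in HT29 (6 without untreated replicate 1), 5 to 7 in HTOXAR3, 3 to 5 with Curcumin in HT29 (3 without OXA plus Curcumin replicate 1), 4 to 5 in HTOXAR3, and 0 to 0 for both interactions. The shares of all names in those fits were 9.16% to 9.79%, 11% to 12.9% and 11% to 12.2% between the lines, 12.8% to 14.5% after OXA in HT29 (13.2% without untreated replicate 1), 7.23% to 7.90% in HTOXAR3, 3.34% (without OXA plus Curcumin replicate 1) to 4.41% with Curcumin in HT29, 5.44% to 6.71% in HTOXAR3, and 0.715% to 0.887% and 0.0221% to 0.168% for the interactions.

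Among the called differences of members described here, signs turned with the probe for ABCB8 between untreated lines, -0.029 with the mean of its probes and -0.41 with the other; for ABCC3 under OXA 0.0148; for ABCC10 -0.14 and ABCD4 -0.0365 under OXA plus Curcumin; for ABCD4 after OXA in HT29 -0.18; and after OXA in HTOXAR3 -0.0031 for ABCB1. The cause was not tested. Signal over background limits the 15 members seen on few or no arrays, where a missing call says little.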
